A study of Mus musculus with 2 samples.

Results

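Glycolysis and fatty acid oxidation were described through 33 genes chosen by name, 22 of glycolysis with glucose uptake and lactate handling and 11 of fatty acid oxidation with its coactivator, out of 21911 protein-coding genes of the GENCODE M21 annotation. The genes were taken from a list and not by any measured value. That list was chosen with earlier results of these data known. Chromatin accessibility was measured by ATAC-seq, in which the transposase Tn5 cuts open DNA, in primary regulatory T cells from a male mouse of the cross Foxp3CreERT2 x Rosa26YFP at the age of 4 months. In that cross a tamoxifen-inducible Cre is driven from Foxp3, the gene of the transcription factor that defines regulatory T cells, and a yellow fluorescent reporter sits at Rosa26. The labels trace the cells to bone marrow haematopoietic cells, name no treatment and give 2 libraries as technical replicates of 1 biological replicate. With 1 group and peak lists made from both libraries together, no replicate error, no test and no comparison between conditions could be given, and every value below describes this one pool of cells.

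Glycolysis splits glucose into pyruvate in the cytosol, and lactate dehydrogenase and the monocarboxylate transporters dispose of pyruvate as lactate. In fatty acid oxidation the carnitine shuttle carries long-chain acyl groups into mitochondria, where a repeating cycle of dehydrogenation, hydration, a second dehydrogenation and thiolysis shortens them to acetyl-CoA. Regulatory T cells are commonly described as leaning on mitochondrial oxidation more than activated effector T cells do, and most steps of both pathways exist as isoenzymes that differ between tissues, such as muscle, liver and testis forms.

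A gene was counted as having a promoter peak when a peak summit lay within 1 kb of any of its transcription start sites (TSSs), and its locus was the gene with 20 kb on either side. Signal is the authors' enrichment value for a peak, and the −log10 p is theirs too; both were used only to rank peaks within a list, and neither measures RNA. The main list was the one thresholded on the irreproducible discovery rate (IDR), with 34610 peaks, and the longer list, called pseudoreplicated by the authors, held 58871. The cell type label was checked on marker genes. All 5 regulatory T cell markers had a promoter peak, as did all 4 T cell markers, Cd3e, Cd3d, Cd4 and Cd28. The background share over coding genes was 52.2%. Signals ran from 2.69 at Tnfrsf18 to 9.67 at Il2ra for the former and from 4.56 at Cd4 to 15.6 at Cd28 for the latter. By signal these markers ranked low. Il2ra lay above only 10.6%, Cd4 above 0.677% and Cd28 above 39.6% of coding genes with a promoter peak. Foxp3 and Ikzf2 had none at the principal start, that of the principal coding transcript, and the Foxp3 summit, 772 bp from its 5′ end, lay closer to starts of Flicr and Ppp1r3f. None of 7 markers of other blood cells (Cd8a, Cd79a, Ms4a1, Lyz2, Itgam, Ncr1 and Hbb-bs) and none of 5 muscle markers (Myod1, Myog, Acta1, Myh6 and Myh7) had one in either list.

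Nearly every gene of the set had an open promoter. A promoter peak was found at 30 of the 33 genes (90.9%), at 21 of 22 glycolysis genes (95.5%) and at 9 of 11 fatty acid oxidation genes (81.8%), where 52.2% of all protein-coding genes had one. The exceptions were Eno3, which encodes the muscle form of enolase, Cpt1b, the muscle form of carnitine palmitoyltransferase 1, and Ppargc1a, the coactivator PGC-1α of mitochondrial genes. Counted at the 5′ end of the gene alone, 27 genes had a peak, 18 of glycolysis and 9 of fatty acid oxidation, against 48.0% of coding genes. In the longer list 31 genes had one, Ppargc1a being the addition, against 57.3%. The members have more annotated start sites than most genes, a median of 7 against 3, and the share of all coding genes with a promoter peak was 22.8% with 1 start site, 45.5% with 2 to 4, 75.9% with 5 to 9 and 86.1% with 10 or more; the part of start-site number in the members' count was not tested.

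Most of these promoters ranked in the lower part of all open promoters by the authors' signal. The median promoter signal was 14.4 in glycolysis (6.93 at Gpi1 to 26.7 at Pfkm) and 13.4 in fatty acid oxidation (8.77 at Cpt1a to 24.3 at Cpt2), and 17.3 over the 11442 coding genes with a promoter peak (interquartile range 13.0 to 21.7). Only 8 of the 30 exceeded that median, 6 of glycolysis and 2 of fatty acid oxidation. The median −log10 p, taken at the most significant promoter summit, was 302 in glycolysis, 194 in fatty acid oxidation and 324 over all coding genes. The shared peak of Hadha and Hadhb (13.4 and 194) is counted for both genes here and is the value at both fatty acid oxidation medians. The order of the pathways by signal turned when 5′ ends alone were used, with medians of 11.4 in glycolysis and 13.4 in fatty acid oxidation. In the authors' ranked list these summits had a −log10 IDR between 2.61 at Acadvl and 3.94 at Hk1. The promoter summits lay close to start sites: 25 of 30 were within 150 bp of a TSS of their own gene (83.3%, against 77.3% of all coding genes with a promoter peak).

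**Figure D1:**
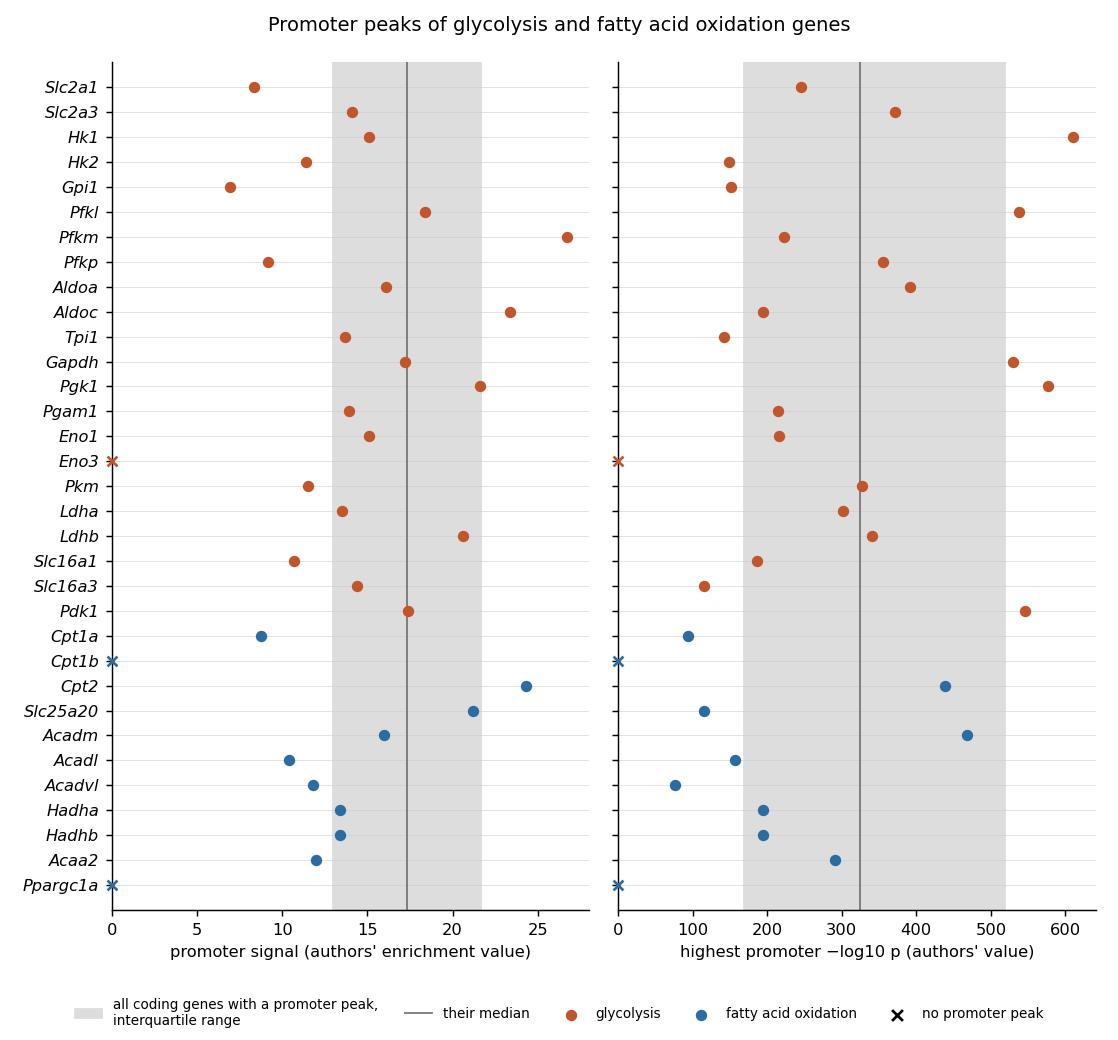
Promoter signal (left) and highest promoter −log10 p (right) of the 33 genes in order of pathway step, both as the authors' values on linear axes; points are single genes, crosses on the axis are genes without a promoter peak, and the grey band and line are the interquartile range and median of the 11442 coding genes with one. Most points lie left of the signal line at 17.3, and Eno3, Cpt1b and Ppargc1a are the crosses.

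Both glucose transporters were open at a promoter and surrounded by further peaks. Slc2a1 encodes GLUT1, the transporter that T cells bring to the surface on activation, and Slc2a3 encodes the high-affinity GLUT3. The Slc2a1 promoter peak (chr4:119108433-119109577, GRCm38/mm10) had a signal of 8.35, higher than at only 6.63% of coding genes with a promoter peak, and its summit fell in intron 1. Of its 6 locus peaks the other 5 were distal, meaning over 1 kb from any TSS, with signals of 12.8 at −2.77 kb, 22.5 at 7.78 kb in intron 1, 7.78 at 17.4 kb and 16.8 at 18.7 kb in intron 2, and 8.97 at 48.7 kb, past the end of the gene. By signal the 3 strongest Slc2a1 peaks thus lay away from its start. By −log10 p the promoter peak (245) ranked below the peaks at −2.77 kb (475) and 18.7 kb (365). It ranked above the peak at 7.78 kb (200) and the rest. Slc2a3 had 13 locus peaks, the most of the set and more than 99.2% of coding genes. Of these, 2 lay at the promoter of the coding gene Foxj2 and 2 at that of the noncoding gene Gm5112. Its locus is long, 114 kb, and scaled to length held 11.4 peaks per 100 kb, fewer than Acadvl (15.5) and Eno3 (13.2). One Slc2a3 promoter peak lay at the principal start site (signal 14.1, −log10 p 371). Another, of signal 9.72, lay at −59.2 kb, by the start of the longest Slc2a3 transcript. Between these starts stood 5 distal peaks, the strongest of signal 23.8 at −43.7 kb.

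The upper part of the pathway, from hexokinase to triose phosphate isomerase, was open at all 9 genes. Hexokinases trap glucose by phosphorylation, and the 2 isoenzymes differed in where they were open. Hk2, the form induced by insulin and growth signals, had a peak 130 bp before its principal start (signal 11.4, −log10 p 149). Hk1, the form of most tissues, had none at its 5′ end, which is also its principal start, in either list. Its promoter peaks lay at start sites in intron 4, at 39.6 kb (signal 15.1) and 52.2 kb (signal 14.4) into the gene, and the first of these lay closer to a start of the antisense gene Hk1os. Its −log10 p of 610 was the highest of the set. ATAC-seq has no strand, so a peak between Hk1 and Hk1os starts cannot be assigned to one of them. Gpi1, which interconverts glucose and fructose phosphates, had the lowest promoter signal of the set (6.93, −log10 p 151).

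Phosphofructokinase catalyses the committed step of glycolysis, and its liver (Pfkl), muscle (Pfkm) and platelet (Pfkp) forms were all open. The ranking depended on the measure. By signal the muscle form led with 26.7, above 93.7% of coding genes with a promoter peak, followed by Pfkl with 18.4 and Pfkp with 9.16. By −log10 p the order was Pfkl 538, Pfkp 355 and Pfkm 222. A neighbouring Pfkp peak had its strongest summit 1.53 kb past the principal start, outside the 1 kb windows and so left out of these values. That summit had a signal of 11.6 and a −log10 p of 545. The Pfkm peak (chr15:98108070-98109127) sat 5 bp from the principal start, and a second promoter peak of signal 9.22 stood near its upstream 5′ end. The summit of that second peak was 775 bp from the nearest Pfkm start, and the peak also lay by starts of Senp1 and Gm26513. Pfkm thus had an open promoter, while the muscle forms Eno3 and Cpt1b had none in the list. The 105 bases of the Pfkm summit window before the start, on the plus strand (chr15:98108361-98108465), are printed because they carry the strongest promoter summit of the set; none of the 8 motifs searched, spelled out below, was found there, so no letters are in capitals.
Pfkm: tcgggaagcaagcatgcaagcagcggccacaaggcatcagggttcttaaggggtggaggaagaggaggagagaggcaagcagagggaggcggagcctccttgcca

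Of the aldolases, which split fructose bisphosphate, Aldoc, named for its expression in brain, had the higher signal (23.4 against 16.1 at Aldoa) and Aldoa, the form of muscle and most cells, the higher −log10 p (392 against 195). The strongest Aldoa summit lay at internal start sites 1165 bp past the principal one, and no summit stood within 1 kb of its 5′ end. Tpi1, triose phosphate isomerase, had promoter peaks with summits 61 bp and 663 bp past its principal start and signals of 13.7 and 10.1. The principal starts of Aldoa and Aldoc, like that of Gapdh of the next steps, have few CpG dinucleotides; the Aldoc peak covered this start, and the Aldoa and Gapdh peaks did not.

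In the lower part 5 of 6 genes were open. Gapdh, whose enzyme makes the NADH of the pathway, had a peak of signal 17.2 and −log10 p 530, its summit 766 bp into the gene by an internal start. Pgk1, the first ATP-making step, reached 21.6 and 577, the highest of the lower part on both measures. Pgam1, which moves the phosphate group, had 13.9 and 214, and Pkm, pyruvate kinase of non-liver tissues, 11.5 and 327. The enolase isoenzymes differed, as those of carnitine palmitoyltransferase 1 did, in whether a promoter peak was listed. Eno1, the ubiquitous form, had 10.5 at its start and a second promoter peak of signal 15.1 and −log10 p 80.1 in intron 11, near the start of a retained-intron transcript. Eno3 had no summit within 1 kb of a start in either list, although its compact locus held 6 peaks. All 6 lay at promoters of other coding genes, namely Rnf167, Slc25a11, Pfn1 and Spag7, and the nearest stood at −2.13 kb with a signal of 4.20. Bases upstream of both principal starts on the plus strand are shown to set an open against an unlisted promoter: 80 for Eno1 (chr4:150236872-150236951, cut where an exon of another transcript ends) and 150 for Eno3 (chr11:70657052-70657201). Capitals mark motif letters on either strand, here the hypoxia response core (ACGTG or GCGTG) and the GC box (GGGCGG) at Eno1; Eno3 holds no motif of the 8.
Eno1: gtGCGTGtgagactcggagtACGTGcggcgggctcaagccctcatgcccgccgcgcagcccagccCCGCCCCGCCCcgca
Eno3: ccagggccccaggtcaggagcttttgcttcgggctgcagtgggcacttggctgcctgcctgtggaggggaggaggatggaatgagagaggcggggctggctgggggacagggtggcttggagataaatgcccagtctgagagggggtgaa

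All 4 genes of lactate exchange and the kinase gene Pdk1 were open. Ldha, the subunit that favours lactate production, had a peak 32 bp before its principal start (signal 13.5, −log10 p 302) and none at its 5′ end 4364 bp upstream. Ldhb, the subunit that favours pyruvate, had a signal of 20.6 and a −log10 p of 341. Ldhb thus ranked above Ldha on both measures, as Slc2a3 and Hk1 did within their pairs, whereas the 2 measures ordered the aldolases and the monocarboxylate transporters in opposite ways. The 150 bases before each principal start are shown because of the difference in motif letters: chr7:46845689-46845838 on the plus strand for Ldha, which holds an E-box (CACGTG), a further 2 hypoxia cores and 3 GC boxes, and chr6:142507958-142508107 on the minus strand for Ldhb, with 1 hypoxia core and a CCAAT box (CCAAT).
Ldha: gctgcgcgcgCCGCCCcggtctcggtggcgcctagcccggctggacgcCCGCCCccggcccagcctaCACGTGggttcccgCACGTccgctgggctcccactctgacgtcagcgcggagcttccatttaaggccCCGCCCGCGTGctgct
Ldhb: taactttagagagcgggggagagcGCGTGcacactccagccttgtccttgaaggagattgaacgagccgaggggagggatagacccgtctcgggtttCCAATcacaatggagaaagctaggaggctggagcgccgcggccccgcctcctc

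The monocarboxylate transporters move lactate across the membrane. Slc16a1 (MCT1) had a promoter signal of 10.7 and a −log10 p of 187. Slc16a3 (MCT4), known as the exporter of highly glycolytic cells, had 7.09 at its principal start and 14.4, with a −log10 p of 115, at a summit 1921 bp past it by an internal start. Pdk1 restrains pyruvate entry into mitochondria by phosphorylating pyruvate dehydrogenase. Its promoter reached a signal of 17.4 and a −log10 p of 546, and distal peaks stood at −9.49 kb, −6.46 kb and 25.4 kb.

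Of the carnitine shuttle 3 of 4 genes were open. Cpt2, the inner-membrane transferase, had the highest promoter signal of fatty acid oxidation (24.3, −log10 p 439) and at Slc25a20, the carnitine-acylcarnitine carrier, signal reached 21.2 while the −log10 p was 115. Cpt1a, the outer-membrane transferase that limits entry of long-chain acyl groups, had 8.77 and 93.7, a signal above only 7.76% of coding genes with a promoter peak. The muscle form Cpt1b had no promoter peak in either list, and the single peak of its locus, of signal 18.0, lay at −3.65 kb over starts of Chkb and 2 further coding genes. The Cpt2 window before the start (chr4:107923611-107923779, minus strand) and 150 bases before the starts of Cpt1a (chr19:3323135-3323284, plus strand) and Cpt1b (chr15:89425864-89426013, minus strand) show the strongest promoter of the pathway and its open and unlisted first step. Capitals at Cpt2 mark 2 hypoxia cores, 2 GC boxes and an ETS motif (CCGGAAG), at Cpt1a 2 GC boxes, and at Cpt1b a CCAAT box and a GC box.
Cpt2: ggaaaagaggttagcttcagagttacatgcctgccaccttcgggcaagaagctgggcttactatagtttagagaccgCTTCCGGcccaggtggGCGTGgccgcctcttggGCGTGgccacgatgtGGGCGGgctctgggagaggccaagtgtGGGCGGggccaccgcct
Cpt1a: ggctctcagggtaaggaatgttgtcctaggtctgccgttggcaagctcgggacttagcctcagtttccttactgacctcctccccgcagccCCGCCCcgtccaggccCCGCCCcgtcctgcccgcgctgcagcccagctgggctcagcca
Cpt1b: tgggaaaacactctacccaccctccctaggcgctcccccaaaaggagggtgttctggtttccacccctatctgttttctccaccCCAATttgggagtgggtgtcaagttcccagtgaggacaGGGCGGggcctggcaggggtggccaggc

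All 6 genes of the oxidation cycle were open. The acyl-CoA dehydrogenases start each round, and the medium-chain gene Acadm led the family on both measures (signal 16.0, −log10 p 468) over the very-long-chain gene Acadvl (11.8 and 75.9) and the long-chain gene Acadl (10.4 and 157). Acadvl had the lowest −log10 p among the promoters of the set. Its 7 locus peaks were the most of the pathway, but 4 of them were promoters of the neighbours Gabarap, Phf23, Dvl2 and Dlg4. Acaa2, the thiolase of the last step, had a promoter signal of 12 and a stronger distal peak of signal 24.0 at −5.71 kb. Its promoter summit, 418 bp before its start, lay closer to starts of the noncoding genes Gm23119 and Scarna17. Hadha and Hadhb encode the α and β subunits of the trifunctional protein, which carries out the remaining steps on long chains. Their 5′ ends face away from each other and shared a single peak (chr5:30154522-30156121, signal 13.4, −log10 p 194), whose summit lay 5 bp from the Hadhb start and 81 bp from the Hadha start. Neither locus held another peak, so both genes carry the same value. It counts for each gene in the counts and medians above and as 1 promoter in the windows below. The 85 bases between the starts (chr5:30155163-30155247, plus strand) hold 2 GC boxes, in capitals.
Hadha-Hadhb: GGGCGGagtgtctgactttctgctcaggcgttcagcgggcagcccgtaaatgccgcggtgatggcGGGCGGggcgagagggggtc

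Ppargc1a, the coactivator, was the one gene of the set with no peak of the main list anywhere in its 153 kb locus. The longer list held 3 peaks there, and its promoter peak (chr5:51553653-51554161) was weak, with a signal of 5.84 and a −log10 p of 14.9. An empty locus of this kind was found at 30.2% of coding genes.

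The pathways also differed in the number of peaks in their loci, promoter peaks included. The median locus held 4 peaks in glycolysis (2 at Gapdh and Slc16a1 to 13 at Slc2a3) and 2 in fatty acid oxidation (0 to 7), and 2 over all coding genes. Scaled to length, the medians were 6.04, 3.20 and 2.35 peaks per 100 kb. The 33 loci held 129 distinct peaks, 130 when the shared Hadha and Hadhb peak is counted for both: 39 at own promoters, 32 at promoters of other coding genes, 7 at promoters of noncoding genes only and 52 distal. At least 1 distal peak was found at 21 of 33 genes, against 44.7% of all coding genes, with 16 of 22 in glycolysis (72.7%) and 5 of 11 in fatty acid oxidation (45.5%). The median number of distal peaks per gene was 2 in glycolysis, 0 in fatty acid oxidation and 0 over all coding genes. Glycolysis genes held 43 of the 52 distal peaks. Of these 52 peaks, 25 lay upstream of the principal transcript, 16 in its introns and 11 downstream, with a median signal of 11.1 against 12.1 over all 20661 distal peaks, and a median −log10 p of 108 against 83.5. Every one of the 129 peaks was also in the longer list, which held 176 at the same loci. Both lists come from the same pool of cells, so this overlap is not a replication.

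**Figure D2:**
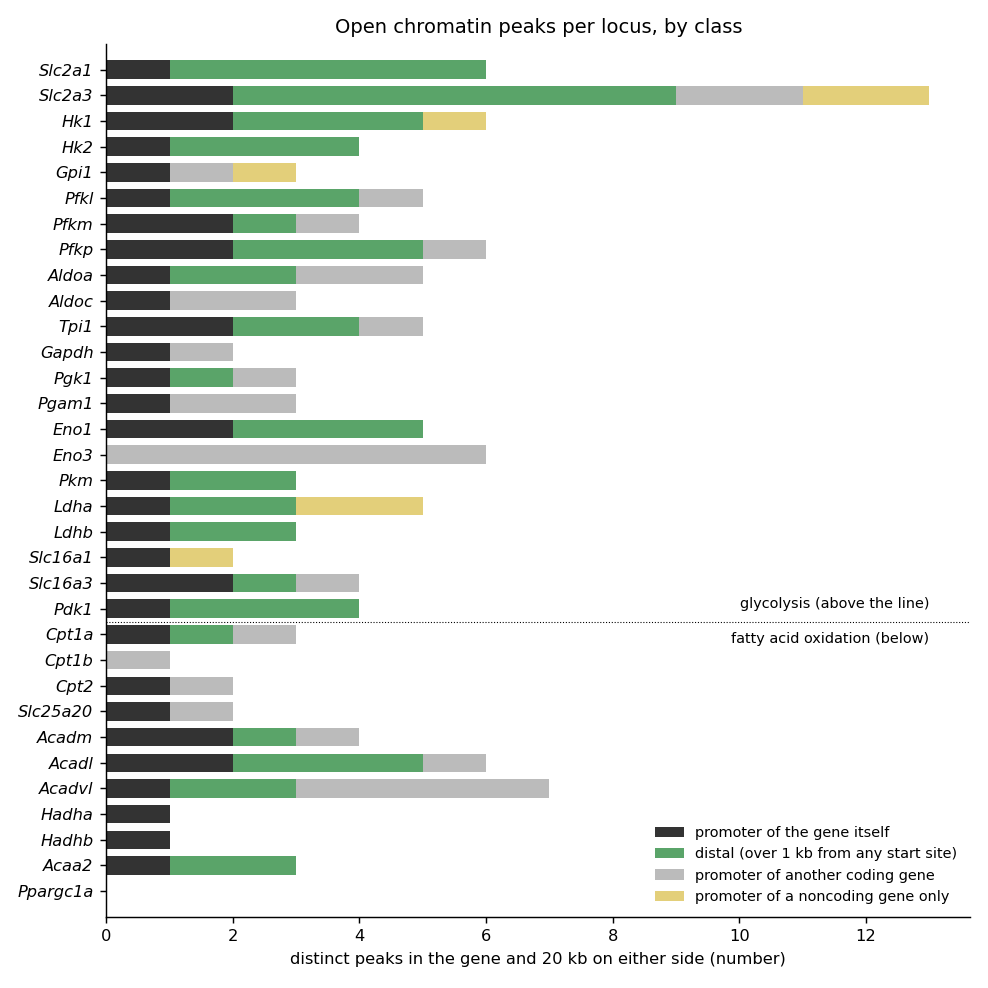
Number of distinct peaks in each gene with 20 kb on either side, stacked by class, for the 22 glycolysis genes above the dotted line and the 11 fatty acid oxidation genes below it. Slc2a3 has the longest bar with 13 peaks, all 6 peaks of Eno3 are promoters of other genes, and Ppargc1a has no bar.

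**Figure D3:**
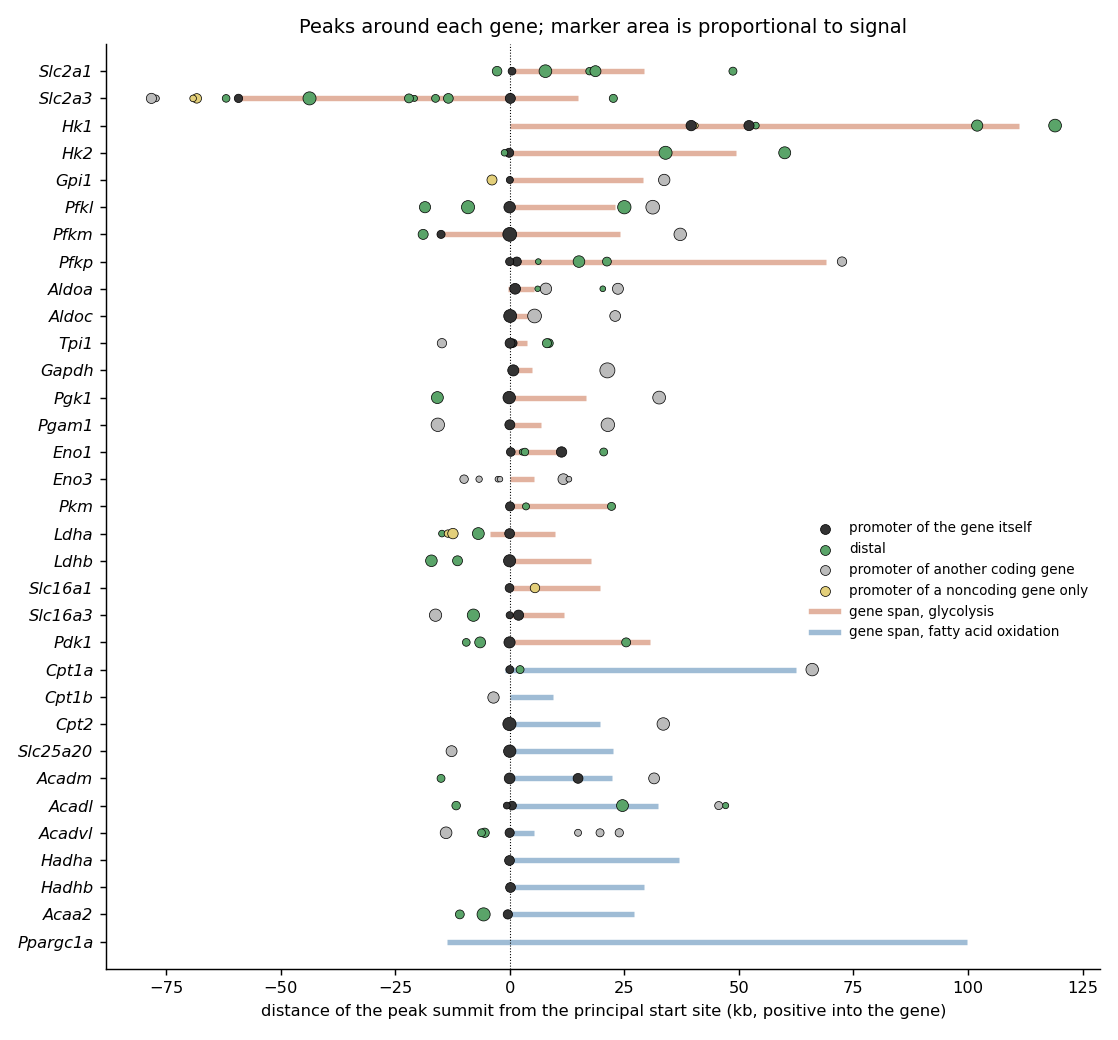
Position of every peak of the main list in the 33 loci, in kb from the principal start site with positive values into the gene; lines are the annotated gene spans and the area of each marker is proportional to the authors' signal. Hk1 has no marker at 0, its 2 own promoter peaks standing 39.6 kb and 52.2 kb into the gene, and Slc2a3 shows the row of distal markers upstream of its principal start.

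The strongest distal peaks of the set stood at Pfkl, with signals of 24.8 at 25.0 kb, past the end of the gene, and 24.0 at −9.11 kb, beside the Acaa2 peak already given. Others above 21 were the Slc2a3 peak at −43.7 kb, 23.7 in intron 7 of Hk2, 22.6 downstream of Hk1, 22.5 in intron 1 of Slc2a1 and 21.1 at −7.93 kb of Slc16a3. The 120 bases around the Pfkl summit at −9.11 kb (chr10:78018855-78018974, on the strand of the gene) are shown as the strongest distal window of the set that lies outside exons and can be printed; the capitals mark a hypoxia core on the reverse strand.
Pfkl distal: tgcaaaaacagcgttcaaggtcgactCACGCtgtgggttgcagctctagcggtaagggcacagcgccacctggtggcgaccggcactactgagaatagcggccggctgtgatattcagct

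The presence of a promoter peak went with CpG content. The observed to expected CpG ratio in 1 kb around the principal start had a median of 0.666 in glycolysis, 0.604 in fatty acid oxidation and 0.571 over all coding genes. In 3 groups of equal size by this ratio, 13.6% of coding genes in the lowest, 58.2% in the middle and 84.8% in the highest group had a promoter peak. All 12 members in the highest group and 14 of 15 in the middle had one, Cpt1b (ratio 0.340) being the exception. In the lowest group 4 of 6 had one: Aldoc (0.228), Gapdh (0.286), Aldoa (0.237) and Hk1 (0.109). Of these only the Aldoc peak covered the principal start, the Gapdh, Aldoa and Hk1 peaks lying at internal starts outside the window of the ratio. Eno3 (0.140) and Ppargc1a (0.176) were the other two. The part of CpG content in the members' count was not tested further. The 3 members of lowest promoter signal, Gpi1 (0.735), Slc2a1 (0.810) and Cpt1a (0.747), were all in the highest group by CpG ratio.

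**Figure D4:**
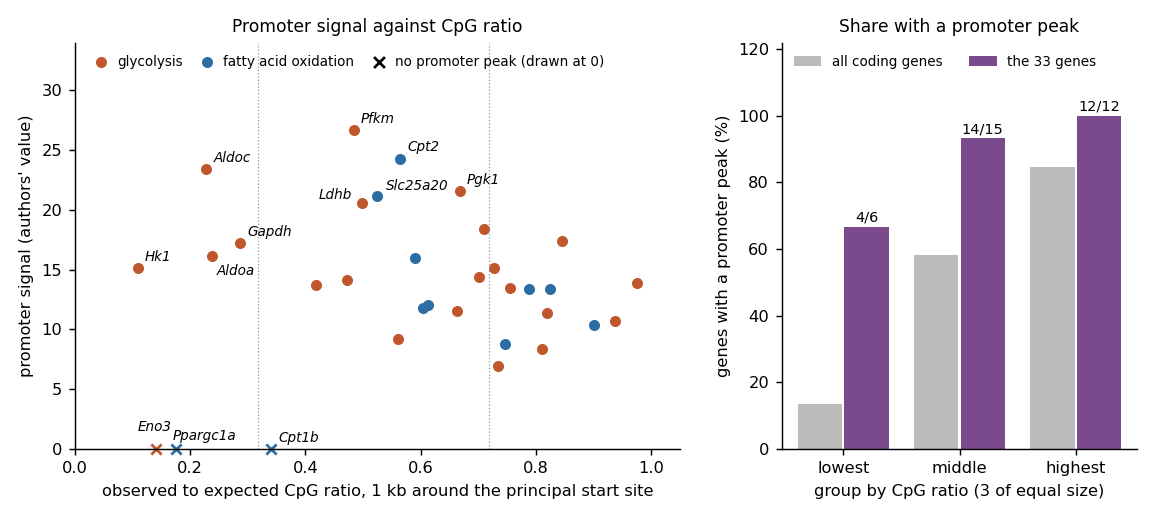
Left, promoter signal against the observed to expected CpG ratio of 1 kb around the principal start, 1 point per gene, with crosses at 0 for genes without a promoter peak and dotted lines at the bounds of the 3 groups of all coding genes. Right, percent of genes with a promoter peak in each group, for all coding genes (13.6, 58.2 and 84.8%) and for the 33 genes, with their counts above the bars.

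Letters of 8 motifs were searched on both strands in windows of 200 bp centred on the promoter summit, 29 windows for the members and 10230 over all coding genes. Beside those spelled out above these were the NRF1 motif (GCGCATG), the site of oestrogen-related receptors (AAGGTCA) and the TATA box (TATAAA). A match is only a match of letters, and each E-box contains the hypoxia core. The hypoxia core was found in 19 of 29 member windows (65.5%) and in 55.8% of all, the GC box in 22 (75.9% and 59.9%) and the CCAAT box in 12 (41.4% and 34.4%). For Eno1 the counted window was that of its intron 11 summit and not the stretch printed above. That window held a CCAAT box but no hypoxia core and no GC box. With windows of 100 bp the hypoxia core was at 37.9% and 37.0%, and in RefSeq promoter windows, placed on starts and not on summits, at 73.8% and 50.4%. The order for the CCAAT box turned with windows of 400 bp (41.4% and 43.8%) and in the RefSeq windows (31.0% and 37.8%), where that for the TATA box turned too (2.38% and 12.1%). The E-box, read by MYC and related factors, was found at 1 member promoter, Ldha (3.45%), and in 8.67% of all windows. ETS letters were found in 3 of 8 fatty acid oxidation windows (Cpt2, Acadl and Slc25a20) and in 1 of 21 of glycolysis (Aldoc), and in 18.7% of all. The site of oestrogen-related receptors was found at Tpi1 and the shared Hadha and Hadhb promoter, and the TATA box at Slc2a3 and Gapdh, each 6.90% of member windows, against 1.22% and 2.51% of all. The median GC content of these windows was 65.0% at the members and 64.0% over all.

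At distal summits hypoxia core letters were found in 24 of the 52 distal member windows (46.2%) and in 26.8% of all 20661 distal windows, and the E-box in 7 (13.5%) and 5.06%. The 7 E-box windows were those of Slc2a3 at −61.9 kb, Hk1 in intron 18, Hk2 in intron 7, Pfkp in intron 2, Pdk1 at −9.49 kb, Cpt1a in intron 1 and Acadl at 47.1 kb. The median GC content was 50.2% in the member windows and 48.5% in all. RUNX letters (TGTGGT) were found in 16 (30.8%, against 26.5%) and AP-1 letters (TGANTCA) in 9 (17.3%, against 13.0%); these 2 motifs, typical of T cell enhancers, were added after the other values were seen.

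**Figure D5:**
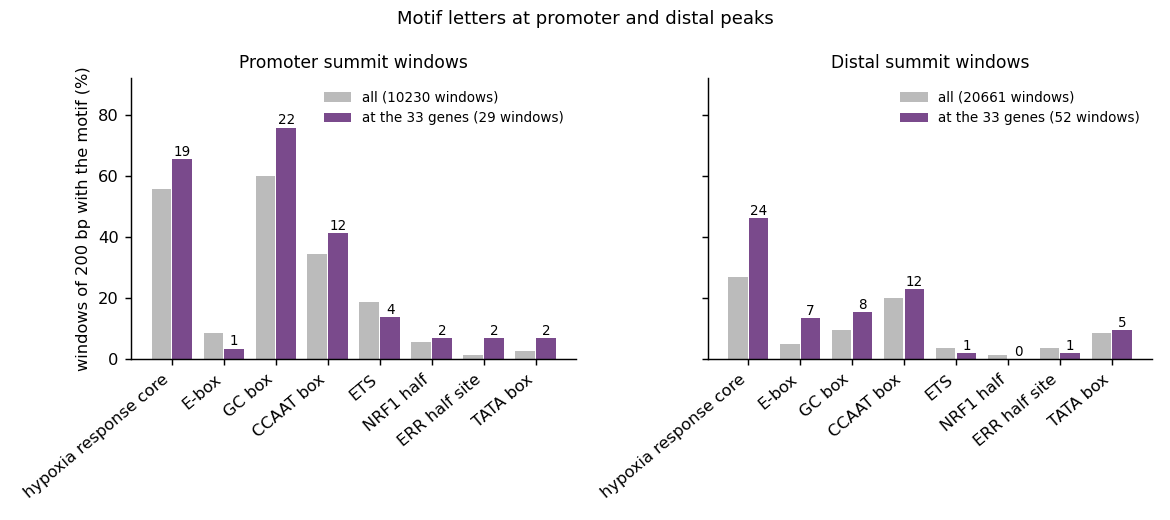
Percent of 200 bp windows centred on a summit that hold each motif, for promoter summits (left) and distal summits (right), with all windows in grey and those of the 33 genes in purple; numbers above the purple bars are windows with the motif. The hypoxia core stands at 65.5% and 55.8% in promoters and at 46.2% and 26.8% in distal windows.

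Other genes of the pathways, from lists of 32 each, were open less uniformly in glycolysis. Of the other glycolysis genes 20 (62.5%) had a promoter peak, where 52.2% of all coding genes had one. The highest signals were at Tigar (27.1), which lowers fructose bisphosphate, Pdk2 (26.9), a further pyruvate dehydrogenase kinase, and Bpgm (24.8), bisphosphoglycerate mutase. The 12 without one included forms known from other tissues, among them Slc2a2 and Pklr of liver, Gapdhs, Pgk2 and Ldhc of testis, Pgam2 of muscle and Hk3 of myeloid cells, and also Ldhd, Slc16a7 and Pdk4. Other isoenzymes on the list did have one, such as Slc2a4 (16.0), Eno2 (9.97), Eno4 (19.9), Pfkfb1 (23.2) and Hkdc1 (14.4, at an internal start). The Eno4 and Pfkfb1 peaks also lay within 1 kb of starts of Hspa12a and Apex2. Ldhd and Slc16a7 had a promoter peak in the longer list. Of the other fatty acid oxidation genes 26 (81.2%) had a promoter peak, led by Echs1 (31.6), the enoyl-CoA hydratase, Etfa (28.1), an electron-transfer flavoprotein subunit, and Acad8 (27.9), a dehydrogenase of valine breakdown; the peaks at Echs1 and Acad8 are shared with starts of Paox and Thyn1. Without one were Cpt1c, Acsl6, Slc27a2, Cd36, Acot1 and Fabp3, in both lists. The median promoter signal was 16.8 in the other glycolysis genes and 19.2 in the other fatty acid oxidation genes. Over all coding genes with a promoter peak it was 17.3, and in the members 14.4 in glycolysis and 13.4 in fatty acid oxidation.

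Of 17 regulators of these pathways 15 had a promoter peak, where 52.2% of all coding genes had one. Hif1a and its partner Arnt, which bind the hypoxia core, had signals of 17.0 and 18.0. Myc, a driver of glycolytic genes on activation, had the lowest, 4.11, with 5 locus peaks, and its partner Max 18.3. In the growth pathway Mtor had 20.6, Rptor 29.2 and Rictor 10.4, and of the energy-sensing kinases Stk11 had 21.5 and Prkaa1 9.04. Among activators of oxidation, Ppard had 25.0, Esrra 20.3, Ppara 16.1, Tfam 13.1, Nrf1 12.6 and Ppargc1b 11.5. Prkaa2 and Pparg had neither a promoter peak nor any peak of the main list in their loci; the longer list held 1 at Pparg. The related coactivators thus differed, with Ppargc1b open and Ppargc1a without a peak of the main list.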

How the data were processed

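ATAC-seq was measured in 2 libraries, technical replicates of 1 biological replicate, and per the file listings deposited with both libraries the peak lists on mm10 derive from an alignment they share, so no value per library was used. For every summit the authors' deposited lists hold a signal (enrichment over a reference that is not stated) and a −log10 p, in the narrowPeak columns that the listings name. The ranked list deposited by the authors adds a score, the −log10 of the IDR. Not given in the sources used here are the aligner, the peak caller, any shift of read ends for Tn5 and the background of the enrichment. The lists hold no read counts, so depth is unknown.

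Every summit of the IDR-thresholded list on the autosomes, X and Y (68653 in 34610 peaks) was used. The highest-signal summit within 1 kb of any GENCODE M21 start site gave the promoter signal, locus peaks were counted by distinct interval, and where gene models share a symbol the one with most transcripts was kept. Percentages of genes with a lower signal refer to the coding genes with a promoter peak. Only peaks on the 21 chromosomes of the reference, GRCm38, which is mm10, were kept, and none of these passed a chromosome end. Sequences were read from the RefSeq copy of GRCm38, and RefSeq promoter windows, used in an alternative, matched 30 of the 33 genes.

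All 33 genes are named, and of each list of other pathway genes the 3 of highest promoter signal and every gene without a promoter peak, and all regulators. Some further isoenzymes with a promoter peak on the list of other glycolysis genes are named too. A few genes without a promoter peak on the list of other glycolysis genes are counted but not reported here by name. The members and lists were chosen with earlier results of these data known. Analyses used Python 3.11.15, pandas 2.3.3, numpy 2.4.6, pysam 0.24.0 and matplotlib 3.10.9. Tested on simulated data, 400 of 400 planted promoter peaks and 300 of 300 planted E-boxes were found, and 1000 of 1000 promoter and locus assignments equalled a direct search. Alternatives used the longer list, median thresholds on signal or −log10 p, the strongest summit per peak, peak overlap in place of summits, other promoter windows, start-site sets, locus flanks and motif windows, and a 50% overlap of lists.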

Additional observations from a re-analysis of the deposited data

How the results depend on the processing

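Depth is unknown and all lists come from 1 pool, so none of these values has an error between animals. No paired analysis was possible because the labels give 1 group and the lists pool both technical replicates; for the same reason neither replicate could be left out. Over 15 alternatives, 106 of 117 recomputed summary values were called unchanged. Counts and medians were so called when they moved by at most 1.5 times, and differences between the pathways when they kept their sign. Motif shares were so called when they stayed within the exact 95% binomial interval of the main share. The longer list gave the same promoter signal at every gene with a promoter peak in the main list, so it is no independent check of these signals. The count of glycolysis genes with a promoter peak ranged from 18 (5′ ends only, without Hk1, Aldoa and Ldha) to 22 (windows of 2500 bp, with Eno3, whose summit there had a signal of 4.20), and that of fatty acid oxidation from 9 to 10. The order of the pathways by median promoter signal reversed with 5′ ends only (a difference of −1.96 in place of 1.00). The median number of locus peaks of fatty acid oxidation became 4.00 with the longer list, 1.00 with flanks of 5 kb and 1.00 without the gene's own promoter peaks, and that of glycolysis became 2.50 with flanks of 5 kb and 6.50 with 50 kb; all coding genes gave 3.00 with the longer list, 1.00 with 5 kb and 3.00 with 50 kb. In motif windows of 100 bp the hypoxia core fell to 37.9%, and the E-box, the site of oestrogen-related receptors and the TATA box each to 0%; in windows of 400 bp the hypoxia core was at 82.8%, against 74.0% over all. The cause was not tested beyond the change of window or list itself. Single promoter signals moved by over 1.5 times at Pfkm (9.22) and Slc16a3 (7.09) with 5′ ends only and at Acadl (6.53) within 500 bp.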
